A study of Medicago truncatula with 6 samples.

Results

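Genes of jasmonate synthesis and signalling were measured by sequencing root RNA of mycorrhizal Medicago truncatula, a legume whose roots host arbuscular mycorrhizal fungi. The genes were chosen by words in the deposited description column (jasmonate, lipoxygenase, allene oxide, 12-oxophytodienoate, JAZ, TIFY, coronatine-insensitive, methyl jasmonate esterase), cytochrome P450 genes left out. The words matched 86 of the 54762 loci in the table. Of these, 13 were potassium channel genes that matched only because the word rectifying contains the letters of TIFY, so the jasmonate genes proper numbered 73. They were 41 lipoxygenases, 6 allene oxide cyclases, 11 12-oxophytodienoate reductases, 2 coronatine-insensitive receptors, 12 JAZ or TIFY repressors and 1 methyl jasmonate esterase.

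Jasmonates are lipid hormones of wounding and defence. A 13-lipoxygenase oxygenates linolenic acid in the plastid, allene oxide synthase and allene oxide cyclase turn the product into 12-oxophytodienoic acid, and a reductase and beta-oxidation in the peroxisome complete jasmonic acid. 9-lipoxygenases oxygenate another carbon of the same fatty acids and feed other oxylipins. The isoleucine conjugate joins the F-box protein COI1 to JAZ repressors, which are then degraded and release MYC transcription factors. In Medicago roots, allene oxide cyclase is known to be needed for normal jasmonate levels and mycorrhization.

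The comparison was between wild-type R108 and the Mtphr2 mutant, labelled as carried in the R108 line, with 3 libraries per genotype. Roots of both genotypes were mycorrhizal, so the fungus was shared by all libraries and no roots without it were compared. The series is titled as a study of PHR2, a regulator of the phosphate starvation response, and arbuscule maintenance. The sources used here do not give the mutated locus, the kind of allele, the fungus, the plant age or the phosphate supply, and the genotype labels were not checked by a targeted gene. The labels speak of technical replicates, so p-values here measure the spread between these libraries only. Where 3 values are given for a genotype, they are its replicates 1, 2 and 3 in that order, and a mean carries its SD over n = 3 libraries.

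Deposited estimated counts summed to 18199040 to 21477169 per library. Levels are CPM, counts scaled to a common library size. Markers of arbuscules, the branched fungal structures inside root cells, were present in every library, and all 12 had lower fitted levels in Mtphr2 (median log2 fold change -2.41). Their mean log2 CPM was 7.61, 6.45 and 5.27 in R108 and 5.34, 2.77 and 3.55 in Mtphr2, so R108 replicate 3 lay below Mtphr2 replicate 1. The 12 leghemoglobin genes, which mark nodules, summed to 4.12 to 11.6 CPM in R108 and 1.96 to 3.64 CPM in Mtphr2, with 7 of them at 0 in all libraries. The 8 Rubisco small chain genes, which mark green shoots, summed to 14.1 to 22.0 and 14.8 to 19.8 CPM.

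Of the 73 jasmonate genes, 44 had enough counts to be tested. The other 29 had at most 20 estimated counts in any library, and 17 of them had none. Among the 44, the methyl jasmonate esterase gene was lower in Mtphr2, 1 gene of a row of 9-lipoxygenase genes was higher, and 5 others next to each other in that row were lower. Both COI1 receptor genes and the main 13-lipoxygenase gene had slightly higher levels in Mtphr2, and the main allene oxide cyclase gene a slightly lower one. None of these differences passed at an adjusted p of 0.05 in the quasi-likelihood test of edgeR, adjusted by Benjamini-Hochberg over all 22663 tested loci, of which 0.0794% passed (0.0485% higher, 0.0309% lower).

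By edgeR 0 of the 44 passed, and by limma-voom 0, where 0.137% of all loci passed (0.0882% higher, 0.0485% lower). DESeq2 called 5 of the 44 (11.4%), 1 higher and 4 lower, against 5.73% of all loci (2.77% higher, 2.96% lower). An unadjusted p under 0.05 by edgeR was found for 12 of the 44 (27.3%), 5 higher and 7 lower, against 16.4% of all loci (8.01% higher, 8.41% lower). The libraries of the genotypes did not overlap in 12 of the 44 (27.3%), 6 higher and 6 lower, against 22.2% of all loci (11.6% higher, 10.6% lower). The fitted log2 fold change was above 0 for 21 of the 44 and for 52.3% of all loci, with a median of -0.09 against 0.02 over all loci.

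With a term for the replicate number in edgeR's test, called the replicate block, 1 of the 44 passed, the esterase gene, against 0.335% of all loci (0.115% higher, 0.221% lower). An unadjusted p under 0.05 in that fit was found for 14 of the 44, 8 higher and 6 lower, against 20.2% of all loci (9.68% higher, 10.5% lower). The plot of fold changes by role shows the esterase as the lowest of the 44, and 9-lipoxygenases spread on both sides of 0.

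**Figure D1:**
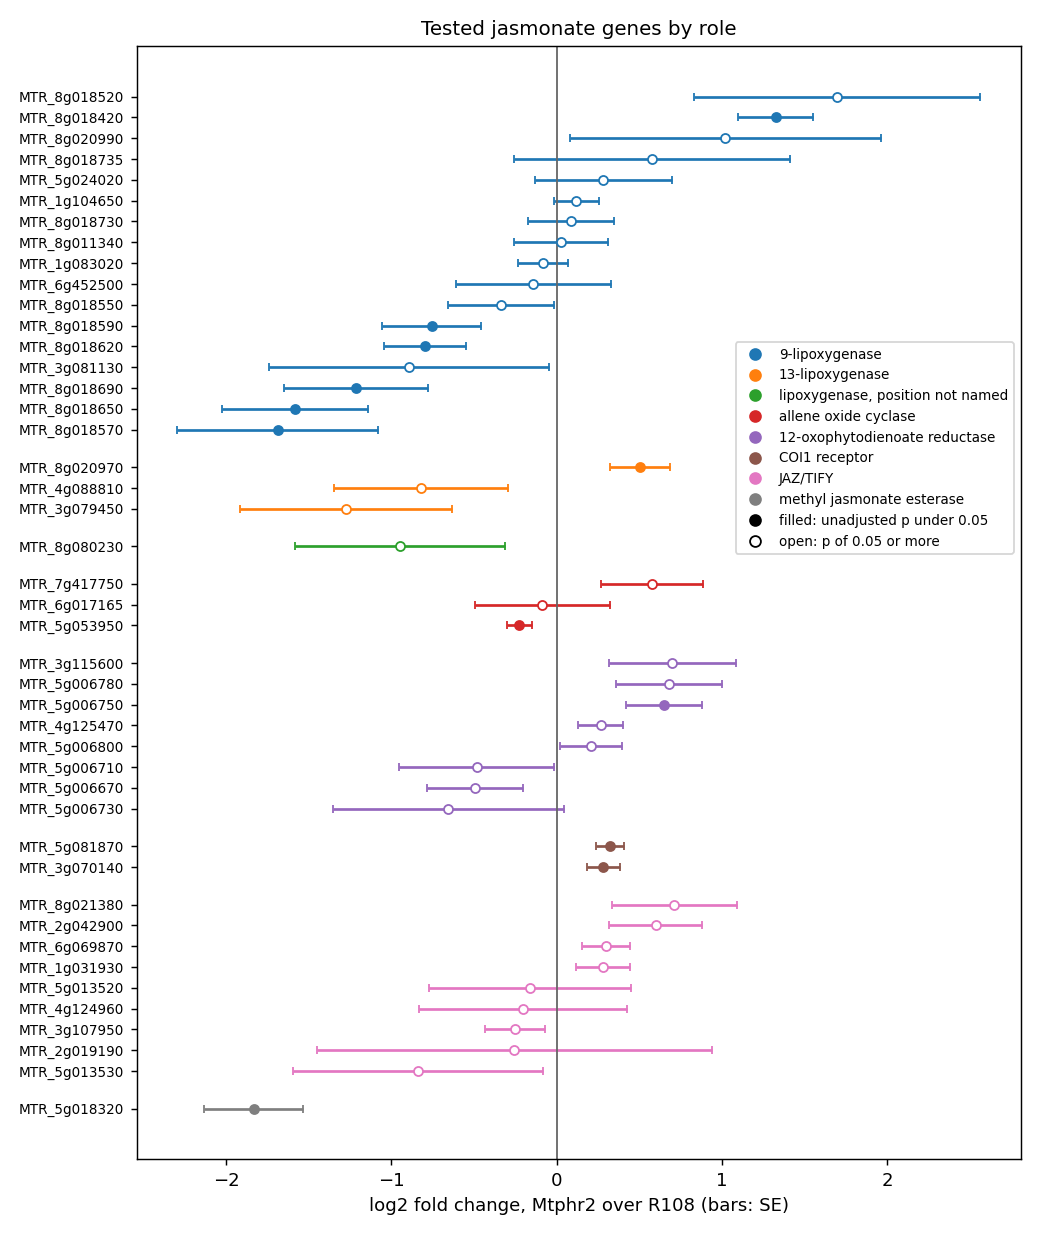
Fitted log2 fold change (Mtphr2 over R108, x axis) of the 44 tested jasmonate genes, grouped by role, with bars of 1 SE and filled points for the 12 genes with an unadjusted p under 0.05 by edgeR. The 9-lipoxygenases run from -1.69 to 1.70, while the COI1 genes sit at 0.28 and 0.32 with short bars.

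The methyl jasmonate esterase gene MTR_5g018320 encodes an enzyme of a family that splits methyl esters of hormones, methyl jasmonate among them, and its closest Swiss-Prot entry is a grapevine methyl jasmonate esterase. The deposited annotation also lists methyl salicylate and methyl indole-3-acetate among the substrates. It had 64.0, 56.2 and 33.9 CPM in R108 and 17.8, 15.2 and 10.3 CPM in Mtphr2. The genotypes did not overlap (51.4 ± 15.6 against 14.4 ± 3.82 CPM), and replicate 3 was the lowest of each genotype. The level was 3.56-fold lower in Mtphr2 (log2 fold change -1.83, SE 0.2996), with an adjusted p of 0.123 by edgeR. With the replicate block it fell by 1.82 on the log2 scale (adjusted p = 0.0245 by edgeR), and DESeq2 called it as well (adjusted p = 1.47e-06). With both libraries of 1 number left out of the block fit, the adjusted p was 0.0902 without number 1, 0.0740 without number 2 and 0.0291 without number 3, so the call ended without number 1 or 2. The arbuscule markers were also lower in Mtphr2 and had the same order among the R108 libraries. Among the Mtphr2 libraries the order differed, with marker means of 5.34, 2.77 and 3.55 log2 CPM, lowest in replicate 2. The part of arbuscule content in the esterase result was not tested. In bulk root RNA, fewer cells of a type and less RNA per cell cannot be told apart.

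Methylesterase genes with near locus numbers share the closest Swiss-Prot entry of the esterase gene, and the rule did not pick them. Their order on the chromosome was not checked. Of these, MTR_5g018300 had 323, 250.4 and 221 CPM in R108 and 188, 226 and 217 CPM in Mtphr2 (log2 fold change -0.33, adjusted p = 0.358 by edgeR). MTR_5g018280 had 77.2, 42.0 and 41.0 against 39.3, 42.2 and 40.0 CPM. In both of these genes the genotypes overlapped. Outside the rule, 2 of the 7 tested esterase genes with this entry had lower levels without overlap, against 10.6% of all loci. Both had low counts and were named after their values were seen. MTR_3g464040 had 2.44, 1.33 and 2.60 against 0.803, 0.368 and 0.762 CPM, 3.28-fold lower in Mtphr2 (adjusted p = 0.1997 by edgeR and 0.0319 by DESeq2). MTR_8g007675 had 0.597, 0.769 and 0.921 against 0.452, 0.368 and 0.286 CPM (adjusted p = 0.270 by edgeR and 0.382 by DESeq2). Estimated counts of MTR_5g018320 were not whole in any of the 6 libraries. The source of such fractions is not stated, so its level is uncertain if reads were shared with similar copies. Of the 44 tested jasmonate genes, 21 had a count that was not whole in at least 1 library (47.7%, against 26.5% of all loci).

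Of the 41 lipoxygenase genes, 28 were closest to 9-lipoxygenase entries, 9 to 13-lipoxygenase entries and 4 to entries that name no position. In a RefSeq gene table of another assembly, used here only for the order of genes, 13 of the 9-lipoxygenase genes made a row, or run, from MTR_8g018420 to MTR_8g018735 with 1 other gene among them. The row held 91.1% to 94.9% of all lipoxygenase CPM in each library. Summed, it reached 5452, 3152 and 4612 CPM in R108 and 3063, 3875 and 4082 CPM in Mtphr2, and the genotypes overlapped. Per length, in CPM per kb of the deposited gene length, MTR_8g018550 of the row had the highest mean of the 44 jasmonate genes in both genotypes, 594 in R108 and 470.2 in Mtphr2. In CPM, MTR_8g018550 had 2027, 1147 and 2338 in R108 and 1005, 1731 and 1626 in Mtphr2, which overlapped (adjusted p = 0.637 by edgeR).

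MTR_8g018420, the first gene of the row, was higher in every Mtphr2 library. It had 399, 327 and 301 CPM in R108 and 688, 738 and 1145 CPM in Mtphr2. The mutant level of 857 ± 251 CPM was 2.50-fold that of R108, 342 ± 51.2 CPM (log2 fold change 1.32, SE 0.228), with an adjusted p of 0.134 by edgeR, 0.0875 with the replicate block and 1.41e-05 by DESeq2. In order of mean CPM per kb it was the fifth jasmonate gene in R108, at 116, and the second in Mtphr2, at 290.3. Its closest Swiss-Prot entry is a soybean seed 9-lipoxygenase, while genes 2 to 11 of the row match a lentil 9-lipoxygenase.

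**Figure D2:**
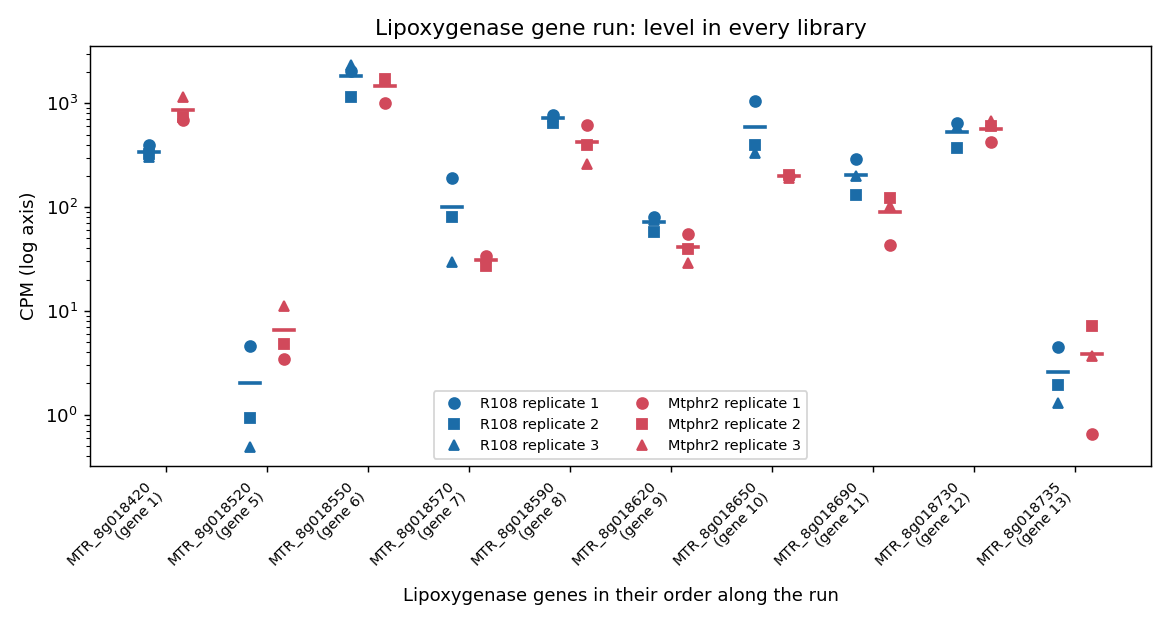
CPM on a log axis of the 10 tested genes of the 9-lipoxygenase row, in their order along it, with 1 point per library and a line at each genotype's mean. MTR_8g018420 is higher in all Mtphr2 libraries, and genes 7 to 11 have lower Mtphr2 means.

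Genes 7 to 11 of the row, 5 neighbours, each had a lower fitted level in Mtphr2 with an unadjusted p under 0.05 by edgeR. This set of neighbours was chosen after its values were seen. Gene 10, MTR_8g018650, had 1049, 393 and 329 CPM in R108 and 198, 205 and 190 CPM in Mtphr2. The genotypes did not overlap, and R108 replicate 1 stood far above the other R108 libraries. It was also the highest R108 library for the arbuscule markers, whose means were 7.61, 6.45 and 5.27 log2 CPM. The level was 2.99-fold lower in Mtphr2 (log2 fold change -1.58, SE 0.442, adjusted p = 0.216 by edgeR and 0.00648 by DESeq2). Without R108 replicate 1 the log2 fold change was -0.87, while the 3 mutant libraries differed among themselves by 1.08-fold at most.

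Gene 7, MTR_8g018570, had a wider spread in the wild type. It had 190, 81.0 and 29.8 CPM in R108 and 34.1, 27.1 and 32.2 CPM in Mtphr2, so the genotypes overlapped through R108 replicate 3 (log2 fold change -1.69, SE 0.609, adjusted p = 0.268 by edgeR and 0.0404 by DESeq2). The order of the R108 libraries was that of the arbuscule marker mean, highest in replicate 1 and lowest in replicate 3, whereas the Mtphr2 libraries of gene 7 differed little. The part of arbuscule content in this result was not tested. Without R108 replicate 1 the log2 fold change was -0.83.

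The other 3 of these neighbours did not overlap between genotypes, where 10.6% of all loci were lower without overlap. Since the neighbours were picked by their values, this count is no separate support. Gene 8, MTR_8g018590, had 766, 641 and 745 CPM in R108 and 612, 401 and 261 CPM in Mtphr2 (log2 fold change -0.76, SE 0.298, adjusted p = 0.288 by edgeR). Gene 9, MTR_8g018620, had 80.3, 57.8 and 75.8 against 54.8, 39.2 and 29.1 CPM (log2 fold change -0.80, SE 0.248, adjusted p = 0.239 by edgeR and 0.0485 by DESeq2). Gene 11, MTR_8g018690, had 288, 132 and 198 against 43.6, 122 and 102 CPM (log2 fold change -1.21, SE 0.435, adjusted p = 0.268 by edgeR). Genes 8 and 9 were lowest in Mtphr2 replicate 3, gene 11 in Mtphr2 replicate 1, so the mutant libraries did not share 1 order across the neighbours.

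All 10 tested genes of the row had estimated counts that were not whole in at least 1 library, and in genes 7 to 11 in all 6. The source of these fractions was not tested, and levels of single genes are uncertain if reads were shared within the row. A sum over neighbours would not depend on a split among them, but it would on a split with other genes of the row. Genes 7 to 11 summed to 2374, 1305 and 1378 CPM in R108 and 943, 794 and 613 CPM in Mtphr2. No test is given for this sum, since its genes were picked by their values. The remaining genes of the row, without these 5 and MTR_8g018420, summed to 2678, 1521 and 2933 against 1432, 2344 and 2323 CPM and overlapped between genotypes.

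Shares of the row were then set side by side, with no test. MTR_8g018420 made up 7.31%, 10.4% and 6.60% of the CPM per kb of the row in R108 and 22.5%, 19.3% and 28.5% in Mtphr2. Genes 7 to 11 made up 45.7%, 43.4% and 31.7% in R108 and 32.5%, 21.7% and 16.0% in Mtphr2, where R108 replicate 3 and Mtphr2 replicate 1 overlapped by a small margin. The share of MTR_8g018420 did not overlap between genotypes. Of the other tested genes, MTR_8g018730 (gene 12) made up 11.4%, 11.4% and 12.7% in R108 and 13.5%, 15.3% and 16.5% in Mtphr2, also without overlap. Its own level overlapped, at 371 to 641 CPM in R108 and 423 to 682 CPM in Mtphr2. Singly, MTR_8g018650 (gene 10) and MTR_8g018690 (gene 11) also had shares without overlap, lower in Mtphr2. They were 7.78% to 20.7% against 5.08% to 6.98% and 4.11% to 5.19% against 1.41% to 3.14%. Genes 5 and 13, MTR_8g018520 and MTR_8g018735, were under 12 CPM in every library, with SEs of 0.86 and 0.83 on the log2 scale. The share of gene 5 did not overlap either, at 0.0121% to 0.0955% in R108 and 0.128% to 0.317% in Mtphr2.

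**Figure D3:**
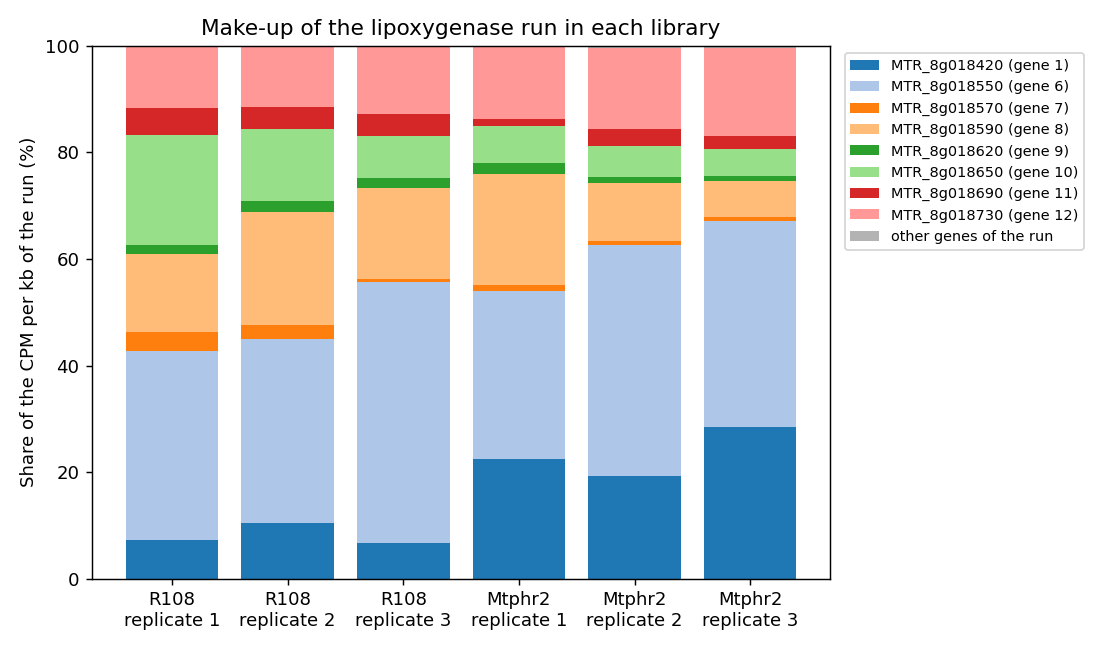
Share of the CPM per kb of the 9-lipoxygenase row taken by each of its genes, in percent, with 1 stacked bar per library. The MTR_8g018420 band at the bottom takes 6.60% to 10.4% in R108 and 19.3% to 28.5% in Mtphr2.

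Outside the row there were 28 lipoxygenase genes, 11 of them tested, which summed to 250.3 to 340.2 CPM per library. MTR_8g020970, closest to a potato chloroplast 13-lipoxygenase and so on the branch that leads to jasmonate, had 96.6, 91.2 and 64.4 CPM in R108 and 138, 114 and 106 CPM in Mtphr2. The genotypes did not overlap, and replicate 1 was highest and replicate 3 lowest in both. The log2 fold change was 0.51 (SE 0.181), with an adjusted p of 0.267 by edgeR and 0.161 by DESeq2. The other 2 tested 13-lipoxygenase genes were low. MTR_3g079450 had 6.35, 3.08 and 16.3 against 5.42, 2.76 and 2.43 CPM, and MTR_4g088810 stayed under 2.1 CPM. R108 replicate 3 stood above all other libraries of MTR_3g079450.

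The other 9-lipoxygenase genes outside the row did not separate the genotypes. MTR_3g081130 varied most, with 62.6, 9.999 and 35.6 CPM in R108 and 4.02, 30.3 and 24.0 CPM in Mtphr2 (adjusted p = 0.638 by edgeR). MTR_5g024020 had 77.6, 33.1 and 31.9 against 56.4, 39.3 and 77.8 CPM, and MTR_1g104650 had 54.0, 72.5 and 56.6 against 61.2, 65.3 and 72.1 CPM. In each of these 3 genes the widest fold between libraries of 1 genotype exceeded the fold between genotype means. MTR_8g080230, closest to LOX6 of Arabidopsis, whose entry names no position, had 11.5, 7.999 and 2.98 against 3.16, 6.77 and 1.71 CPM (log2 fold change -0.95, adjusted p = 0.499 by edgeR).

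Of the 6 allene oxide cyclase genes, MTR_5g053950 had the highest level. The 6 summed to 96.1, 94.3 and 96.0 CPM in R108 and 83.8, 83.9 and 88.3 CPM in Mtphr2. MTR_5g053950 had 85.5, 81.7 and 86.6 CPM in R108 and 76.1, 70.3 and 70.5 CPM in Mtphr2. The libraries of a genotype were within 1.08-fold of each other, and every mutant library was lower (84.6 ± 2.54 against 72.3 ± 3.31 CPM). The level was 1.17-fold lower in Mtphr2 (log2 fold change -0.23, SE 0.0770, adjusted p = 0.261 by edgeR and 0.0987 by DESeq2). The minor copies MTR_7g417750 and MTR_6g017165 had at most 9.44 CPM in any library, with log2 fold changes of 0.58 (SE 0.306) and -0.09 (SE 0.407). The direction of MTR_6g017165 turned when R108 replicate 2, Mtphr2 replicate 1 or Mtphr2 replicate 2 was left out. The other 3 cyclase genes had at most 1 count in any library.

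Among 12-oxophytodienoate reductases, the type known in Arabidopsis and tomato to act in jasmonate synthesis is OPR3, which reduces the cyclopentenone in the peroxisome. Its closest match here, MTR_4g125470, had 19.5, 20.3 and 24.4 CPM in R108 and 26.7, 27.9 and 22.7 CPM in Mtphr2. The genotypes overlapped through the libraries numbered 3 (log2 fold change 0.27, SE 0.136, adjusted p = 0.382 by edgeR). MTR_5g006750, closest to OPR2, had 64.5, 61.6 and 55.4 against 97.1, 123 and 64.3 CPM (log2 fold change 0.65, SE 0.230, adjusted p = 0.266 by edgeR). Mtphr2 replicate 3 lay inside the R108 range for it. It belongs to a series of reductase genes with near locus numbers, MTR_5g006670 to MTR_5g006800, in which the tested members ran from -0.66 for MTR_5g006730 to 0.68 for MTR_5g006780 on the log2 scale. Of the 8 tested reductases, 5 had fitted values above 0 and 3 below, and 5 had counts that were not whole.

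**Figure D4:**
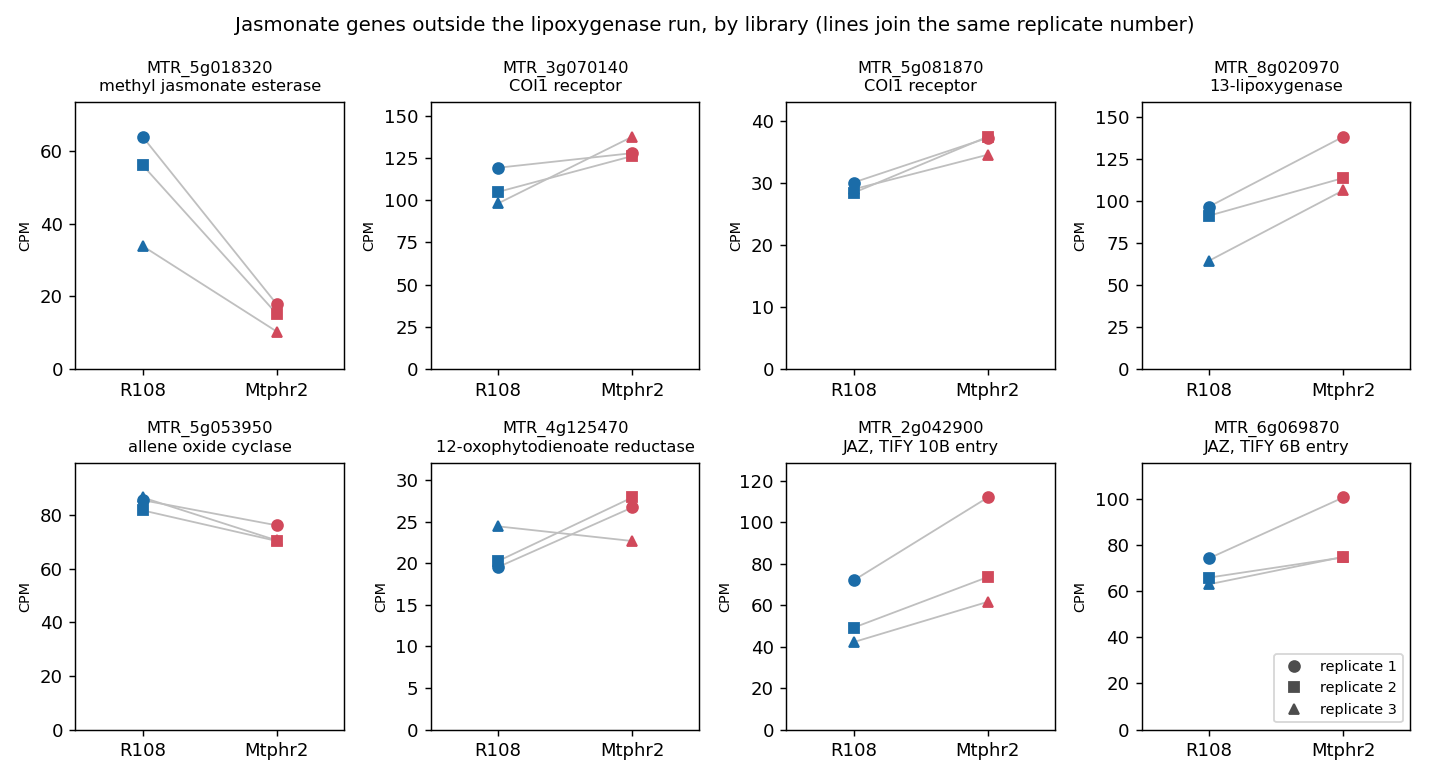
CPM of 8 jasmonate genes outside the 9-lipoxygenase row in each library, on linear axes from 0, with grey lines that join libraries of the same replicate number. The esterase MTR_5g018320 lies at 33.9 to 64.0 CPM in R108 and 10.3 to 17.8 CPM in Mtphr2, and the other genes differ by far less.

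Both COI1 receptor genes were a little higher in Mtphr2. MTR_5g081870 had 30.1, 28.5 and 29.0 CPM in R108 and 37.3, 37.5 and 34.6 CPM in Mtphr2. Its libraries lay within 1.08-fold of each other in each genotype, and the mutant level was 1.25-fold that of R108 (log2 fold change 0.32, SE 0.0863, adjusted p = 0.207 by edgeR and 0.0680 by DESeq2). MTR_3g070140 had 119, 105 and 98.1 against 128, 126 and 138 CPM (log2 fold change 0.28, SE 0.0996, adjusted p = 0.266 by edgeR). Neither gene overlapped between genotypes, where 11.6% of all loci were higher in Mtphr2 without overlap. Neither had a count that was not whole.

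JAZ proteins repress jasmonate responses and are themselves induced by the hormone, so their transcripts are often used as a readout of signalling. The 3 with the highest CPM had higher means in Mtphr2. MTR_2g042900, closest to TIFY 10B, had 72.0, 49.2 and 42.3 CPM in R108 and 112, 73.7 and 61.7 CPM in Mtphr2 (log2 fold change 0.60, SE 0.284, adjusted p = 0.351 by edgeR). It was higher in the mutant in all 3 pairs of libraries with the same number, although the genotypes overlapped, and its adjusted p was 0.0650 by edgeR with the replicate block. MTR_6g069870, closest to TIFY 6B, had 74.2, 65.8 and 62.9 against 101, 74.6 and 74.8 CPM and did not overlap (log2 fold change 0.30, SE 0.145). MTR_1g031930, the other TIFY 6B match, had 41.1, 48.9 and 37.2 against 41.5, 57.7 and 55.3 CPM.

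The remaining JAZ genes were low or varied within a genotype. MTR_8g021380, closest to soybean JAZ1, had 19.0, 9.49 and 8.56 against 23.6, 23.9 and 13.05 CPM. MTR_5g013530 and MTR_5g013520, rows that share 1 NCBI gene ID and may stand for 1 gene, had 4.88, 1.08 and 0.704 against 0.803, 1.34 and 1.57 CPM and 3.42, 0.667 and 2.28 against 1.81, 2.72 and 1.14 CPM. Of the 9 tested, 4 had fitted values above 0 and 5 below (median log2 fold change -0.16). After adjustment 0 passed by edgeR (0.0794% of all loci), DESeq2 (5.73%) or limma-voom (0.137%). An unadjusted p under 0.05 by edgeR was reached by 0, against 16.4% of all loci. With the replicate block 0 passed, against 0.335% of all loci. In that fit 3 of the 9 had an unadjusted p under 0.05 by edgeR, all higher (MTR_2g042900, MTR_6g069870 and MTR_8g021380), against 9.68% of all loci. These 3 and MTR_1g031930 were higher in Mtphr2 in all 3 pairs of the same number, but the share of all loci that were so was not counted. For MTR_1g031930 the libraries numbered 1 were nearly level, and its adjusted p with the replicate block was 0.326 by edgeR. TIFY 8, which carries the TIFY motif outside the JAZ group, is the closest entry of MTR_3g107950, at 10.7 to 14.9 CPM in R108 and 8.94 to 11.5 CPM in Mtphr2.

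Steps of the pathway that the description words miss were taken from a list of further words in the descriptions and closest Swiss-Prot names, which gave 87 genes, 51 of them tested. By edgeR 0 passed with or without the replicate block and 0 by limma-voom. An unadjusted p under 0.05 by edgeR was found for 12 of the 51 (23.5%), 6 higher and 6 lower, against 16.4% of all loci (8.01% higher, 8.41% lower). DESeq2 called 4 of the 51 (7.84%), 2 higher and 2 lower, against 5.73% of all loci (2.77% higher, 2.96% lower). A pair of these genes, matched by the name DAD1, encode a subunit of protein glycosylation and are not of the pathway, and 1 of them is among the DESeq2 calls. Genes named here were picked after their values were seen. MTR_8g067280, closest to MYC2, the factor that drives jasmonate responses, had 39.9, 38.9 and 41.3 CPM in R108 and 45.4, 84.2 and 156 CPM in Mtphr2 (log2 fold change 1.25, adjusted p = 0.255 by edgeR and 0.0440 by DESeq2). The R108 libraries were close together and the mutant libraries spread widely above them.

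MTR_5g030430, another MYC2 match, had 146, 128 and 123 against 144, 162 and 172 CPM. All 3 tested MYC genes had fitted values above 0, as did 52.3% of all loci. An unadjusted p under 0.05 by edgeR was found for all 3 (8.01% of all loci, higher). With the replicate block it was found for 2 of the 3, both higher (9.68% of all loci), and 0 passed after adjustment in either fit. In 2 of the 3 the genotypes did not overlap, higher in Mtphr2 (11.6% of all loci). The remaining MYC2 match, MTR_5g030420, was low, at 2.50, 1.85 and 1.52 against 3.11, 4.05 and 3.10 CPM. MTR_7g013820, closest to AFP3 of the NINJA family, a protein known in abscisic acid signalling in Arabidopsis, had 67.5, 53.1 and 39.1 against 127, 80.5 and 103 CPM (adjusted p = 0.199 by edgeR and 0.0146 by DESeq2). The NINJA adaptor match MTR_6g087140, which links JAZ to TOPLESS corepressors, had 103, 93.8 and 98.5 against 103, 94.9 and 95.9 CPM. Acyl-CoA oxidases shorten the side chain in the peroxisome. All 6 tested genes of these enzymes had fitted values below 0, from -0.60 to -0.07 on the log2 scale, while 52.3% of all loci were above 0. An unadjusted p under 0.05 by edgeR was found for 1 of the 6 (8.41% of all loci, lower) and, with the replicate block, for 4 of the 6, all lower (10.5% of all loci), and 0 passed after adjustment in either fit. Among the 3 tested allene oxide synthase or hydroperoxide lyase genes, log2 fold changes ran from 0.03 to 0.38, and among the 3 tested jasmonoyl amino acid synthetases from -0.06 to 0.59.

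The 13 potassium channel genes matched by rectifying gave 7 tested genes. Their log2 fold changes ran from -0.21 to 0.34, and the genotypes overlapped in all 7, while 22.2% of all loci did not overlap. By edgeR 0 of the 7 had an unadjusted p under 0.05, against 16.4% of all loci. With the replicate block 1 of the 7 had, higher in Mtphr2, against 9.68% of all loci. After adjustment 0 passed by edgeR with the replicate block (0.335% of all loci), DESeq2 (5.73%) or limma-voom (0.137%). SKOR, the channel that loads potassium into the xylem, is the closest entry of MTR_5g077770, at 46.6 to 82.9 CPM in R108 and 61.7 to 105 CPM in Mtphr2.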

How the data were processed

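TRIzol RNA from mycorrhizal roots of 3 R108 and 3 Mtphr2 samples was sequenced on an Illumina NovaSeq, per the labels' protocols. HISAT2, StringTie and DESeq2 are named, without versions, in the submitters' processing notes. Which program made the counts is not stated in these sources. The authors deposited expected counts (estimated counts with 2 decimals) per locus and library, a gene length, used for CPM per kb, and means per genotype, which were not used. Coordinates were not used here.

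Counts were rounded and analysed in R 4.3.3 with edgeR 4.0.16: filterByExpr defaults (minimum count 10, minimum total 15), TMM scaling and the quasi-likelihood test of genotype, with Benjamini-Hochberg adjustment over all 22663 tested loci. DESeq2 1.42.0, limma-voom (limma 3.58.1), other scalings and filters, the replicate block and leaving out each library were alternatives. CPM uses TMM-scaled library sizes, and marker means use log2(CPM + 0.1). SEs were derived from the quasi-likelihood F. A count was called whole within 0.004. Library totals of 18199040 to 21477169 counts leave counting error that matters mainly for low genes.

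Deviations from the genotype means correlated at 0.377, 0.151 and 0.168 between R108 and Mtphr2 libraries of the same number, all above 0.1, but R108 replicate 3 correlated at 0.187 with Mtphr2 replicate 2. The titles give the numbers and nothing says what they share. Blocked values stand beside results whose call they change. Pairs of libraries of a genotype had a chi-square per degree of freedom of 25.1 to 51.7, so no pair agreed within counting noise.

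Members and lists were chosen with earlier results of these data known. Named genes are members that passed with or without the replicate block, the 3 with most CPM per role, and up to 15 with the lowest unadjusted p under 0.05, 20 genes in all. Other members are given by values, and any other choice is marked as made after the values were seen. Of the 73 jasmonate genes, 55 had an NCBI gene ID and 54 matched the RefSeq gene table of assembly MtrunA17r5.0-ANR, which gave gene order only.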

Additional observations from a re-analysis of the deposited data

How the results depend on the processing

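Over all loci edgeR called 18, against 76 with the replicate block, 1298 by DESeq2, 31 by limma-voom, 34 without the low-count filter and 9 when only loci averaging 10 CPM were kept. Leaving out 1 library gave 7 to 44. Among the 44 tested jasmonate genes the count of 0 became 1 with the replicate block and 5 by DESeq2, and stayed 0 with every other planned scaling, filter, test and left-out library. Among the other pathway genes it became 4 by DESeq2. With both libraries of 1 number left out of the replicate block, an alternative chosen after seeing the data, all-loci calls were 0 without number 1, 0 without number 2 and 415 without number 3, and jasmonate calls 0, 0 and 2, the last being MTR_5g018320 and MTR_8g018570. Over the 20 named genes, 304 of 318 alternative values kept direction and side of the threshold, 8 newly passed and 6 reversed. As 0 of the named genes passed in the main fit, keeping the side meant not passing, and no call could be lost. The reversals were MTR_6g017165, with log2 fold changes of 0.09, 0.17 and 0.09 without R108 replicate 2, Mtphr2 replicate 1 and Mtphr2 replicate 2, (-0.65 to 0.17 over left-out libraries), and 0.075 and 0.092 in the block without number 1 and number 2, and MTR_8g018550 at 0.034 in the block without number 1. The causes were not tested. Precision is limited by 3 libraries per genotype, with a biological coefficient of variation of 0.275.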
